A study of Mus musculus with 6 samples.

Results

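Imprinted genes were described in 6 RNA sequencing libraries prepared from a single RNA sample of pooled dorsal root ganglia (DRG) of mouse embryos, where the cell bodies of sensory neurons lie. The list held 41 genes of known imprinted clusters out of 37086 genes in the files. It was made up of 24 genes known to be expressed from the paternal allele, 15 from the maternal allele, and 2, Grb10 and Gnas, whose expressed allele depends on the promoter. Each gene was represented by the transcript with the most tags (read counts) over the 6 libraries, and 38 of the 41 had such a transcript. Snurf, Kcnq1ot1 and Peg13 had none under their own symbol and were followed through the intervals that overlap them. The ganglia came from 18 wild-type C57BL/6J embryos of 14.5 days post coitum, of unknown sex, and were pooled before the RNA was extracted. The high-volume group took the RNA up in 9 µl and the low-volume group in 1 µl, each with its own SMARTer kit, so volume and kit cannot be told apart. Each volume had 3 libraries, from 3, 10 and 30 ng of RNA, and values are listed in that order throughout. All SDs, SEs and p-values measure technical spread between libraries of the 1 pool and none measures spread between animals.

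Imprinted genes carry a methylation mark set in the egg or the sperm, so that the copy from one parent is silenced. They lie in clusters controlled by a differentially methylated region, often with a long noncoding RNA that is expressed from the opposite allele to the protein-coding genes around it. Many act on fetal growth, and in the nervous system several are known for neuronal differentiation or for escaping the rule in one cell type. The embryos were of an inbred strain and the files hold no allele counts, so the parental allele is literature background for every gene here and was not measured.

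The chosen transcripts of all genes held 14160401 to 25867706 tags in the high-volume libraries and 15920967 to 31524211 tags in the low-volume libraries, with the fewest at 3 ng in each. Levels are given as the authors' RPKM, tags per kilobase of exon scaled to the library's total. All 10 sensory neuron markers and all 6 glial markers had a mean of 1 RPKM or more. So did all 6 of fibroblasts and meninges, and all 5 each of endothelium, macrophages and erythroid cells. The same held for 4 of 5 markers of pericytes and smooth muscle, 3 of 5 of skeletal muscle, 2 of 5 of cartilage and bone, and 1 of 5 of spinal cord. Every marker on these lists had at least 1 tag. Because the ganglia were measured in bulk, fewer cells of a type and less RNA per cell cannot be told apart. Counting did not use strand, so where genes overlap a tag counts for both, whichever strand it came from.

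Imprinted transcripts ranged from 0 tags in some libraries to a mean of 583 RPKM for Snrpn. Of the 38 with a transcript, 5 had a mean of 100 RPKM or more, namely Snrpn, Nnat, H19, Ndn and Mest. Another 12 lay from 10 to under 100 RPKM, 11 from 1 to under 10, and 10 under 1. In all, 28 of 38 or 73.7% had a mean of at least 1 RPKM, against 33.8% of all genes, many of which are not protein-coding. The share of all tags held by the listed genes was 0.484 to 0.508% at high volume, against 0.485 to 0.531% at low volume. Across the 6 libraries the coefficient of variation of the 28 genes ran from 5.29% for H19 to 109% for Airn, with a median of 16.6%, beside 24.1% for all genes at that level.

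**Figure D1:**
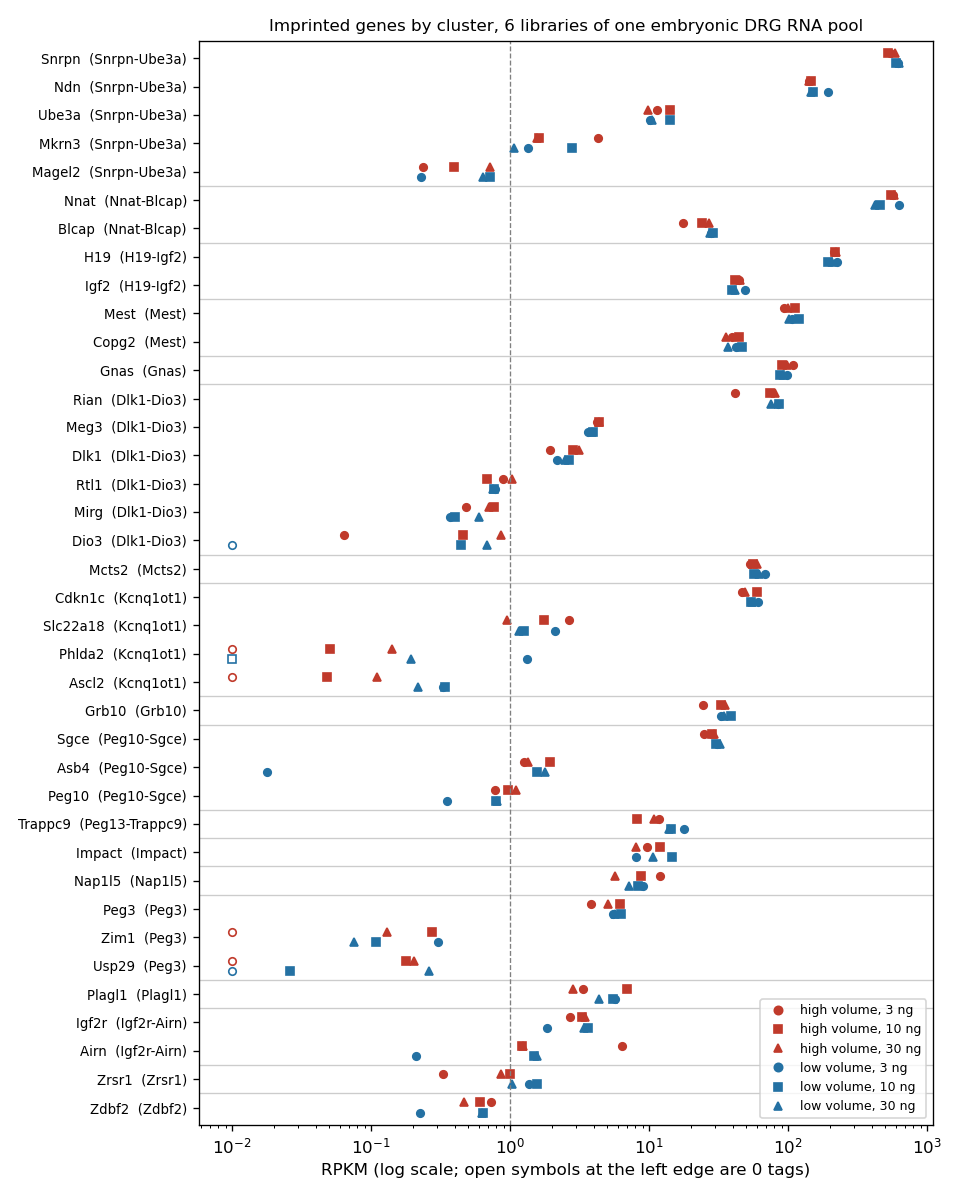
RPKM (log axis) of 38 imprinted genes in each library, grouped by cluster, with high-volume libraries in red above low-volume libraries in blue and the symbol shape giving the input. Snrpn and Nnat are the 2 highest in each library, and Usp29, Zim1 and Ascl2 stay under 1 RPKM throughout, with 0 tags drawn at the left edge.

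Neither parental class stood uniformly above the other. Paternally expressed genes with a transcript numbered 21, of which 15 had a mean of at least 1 RPKM, with a median of the means of 4.78 RPKM. Of the 15 maternally expressed genes, 11 did, with a median of 4.09 RPKM. The difference between both classes was not tested, because genes are not replicates.

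The Snrpn to Ube3a cluster on chromosome 7, the Prader-Willi and Angelman region, held the imprinted gene with the highest mean level of its chosen transcript. Snrpn encodes SmN, a neuronal component of the spliceosome, and lies at chr7:59982495-60005111 on the minus strand of GRCm38. It had 541, 525 and 584 RPKM at high volume, against 617, 595 and 633 RPKM at low volume. Each high-volume value lay below each low-volume value in RPKM, and Snrpn ranked 186 among 37086 genes with a mean of 583 ± 42.3 RPKM (SD, n = 6). Exons 4 to 9 of Snrpn averaged 967 RPKM and exons 1 to 3 averaged 767 RPKM, while the last exon of the chosen transcript, exon 10, averaged 100.5 RPKM. Snurf, a reading frame upstream of SmN on the same transcript, has a short entry in the annotation whose span matches 1 deposited transcript that the annotation names Gm38393. All 216 exonic bases of that transcript lie within Snrpn exons, and its level of 862 ± 95.1 RPKM (SD, n = 6) therefore counts the same tags as the 5′ end of Snrpn.

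Of the intronless genes of this cluster, Ndn was high and Magel2 stayed under 1 RPKM. Ndn encodes necdin, a MAGE protein that promotes survival and differentiation of sensory neurons in mice. It had 141, 145 and 142 RPKM at high volume, against 193, 151 and 147 RPKM at low volume. The low-volume 3 ng library stood above the other 5, which lay close together, and the high-volume values were all below the low-volume ones. Magel2, a second MAGE gene next to it, had 0.236, 0.398 and 0.723 RPKM at high volume, against 0.228, 0.716 and 0.645 RPKM at low volume, and both 3 ng libraries were the lowest of their group. On the log2(RPKM + 1) scale Ndn exceeded Magel2 by 6.70 ± 0.34 (SD) in 6 of 6 libraries. Mkrn3, a makorin ring finger gene, averaged 2.11 ± 1.22 RPKM with a range of 1.06 to 4.29. Ube3a, a ubiquitin ligase expressed from the maternal allele in mature neurons of the mouse brain, had 11.5, 14.3 and 9.79 RPKM at high volume, against 10.1, 14.1 and 10.5 RPKM at low volume, with overlapping groups. Snrpn exceeded it by 5.53 ± 0.29 on the log2 scale in 6 of 6 libraries. Exons 11 and 12 of Ube3a read 37.4 to 66.3 and 36.9 to 64.6 RPKM over the libraries, and the long last exon 5.88 to 12.0 RPKM.

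Nnat, neuronatin, a small membrane protein of developing neurons, was close to Snrpn in level and lies within the single intron of Blcap on chromosome 2. Nnat (chr2:157560140-157562517, plus strand) had 573, 548 and 576 RPKM at high volume, against 629, 458 and 419.7 RPKM at low volume. The groups overlapped through the low-volume 3 ng library, which held the highest value, while the other low-volume libraries held the lowest ones. Nnat was above Snrpn in 3 of 6 libraries (both 3 ng libraries and the high-volume 10 ng library), and above it in the mean, at 659 against 583 RPKM, with the transcript of largest mean RPKM for each gene. Blcap, the host on the opposite strand, which is known to be maternally biased in the mouse brain, had 17.7, 23.9 and 27.0 RPKM at high volume, against 28.1, 29.0 and 27.3 RPKM at low volume, lowest in the high-volume 3 ng library and without overlap of the groups. Nnat exceeded Blcap by 4.34 ± 0.39 on the log2 scale in 6 of 6 libraries. Blcap intron 1 read 77.9 to 116 RPKM, above Blcap exon 2 at 18.8 to 30.7 RPKM. The intron held 12990, 20739 and 23732 tags at high volume, against 15530, 19469 and 20866 tags at low volume, and the exons of Nnat inside it 12849, 20534 and 23516 tags at high volume, against 15406, 19277 and 20625 tags at low volume.

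H19 and Igf2 share an imprinting control region and enhancers on chromosome 7, with H19 expressed from the maternal and Igf2 from the paternal copy. H19, a long noncoding RNA at chr7:142575529-142578143, had 214, 218 and 221 RPKM at high volume, against 224, 193 and 207 RPKM at low volume. Igf2, the fetal insulin-like growth factor, at chr7:142650769-142659489, had 44.4, 41.3 and 45.4 RPKM at high volume, against 49.0, 39.6 and 41.5 RPKM at low volume. The groups overlapped for both, and in both the low-volume 3 ng library held the highest and the low-volume 10 ng library the lowest value. H19 exceeded Igf2 by 2.26 ± 0.07 on the log2 scale in 6 of 6 libraries, the steadiest between libraries of the 12 gene pairs compared. With the transcripts of largest mean RPKM the difference was 1.59. Within H19 the 5′ exon 1 averaged 93.5 RPKM and exons 2 to 5 306 to 429.5 RPKM. Within Igf2, exons 2 to 4 averaged 55.5 to 72.1 RPKM, against 2.67 RPKM for exon 1 of the chosen transcript.

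Both genes also carry a microRNA each, miR-675 in exon 1 of H19 and miR-483 in intron 2 of Igf2. The libraries do not measure mature microRNAs, so the sequences show what the measured intervals encode and no level of the microRNA. They are from RefSeq, in the 5′ to 3′ direction, with the seed (bases 2 to 8) in capitals.
miR-675-5p: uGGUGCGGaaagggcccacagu
miR-675-3p: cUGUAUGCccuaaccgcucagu
miR-483-5p: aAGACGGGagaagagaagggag
miR-483-3p: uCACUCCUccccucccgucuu
No seed among these was shared. The intervals that contain them differed widely, with 82.0 to 116 RPKM for H19 exon 1 and 0 to 0.539 RPKM for Igf2 intron 2.

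Igf2r, the receptor that clears Igf2 for lysosomal breakdown, and Airn, the paternal noncoding RNA that runs antisense through its promoter, were both low. Igf2r (chr17:12682406-12769664) had 2.70, 3.29 and 3.47 RPKM at high volume, against 1.85, 3.63 and 3.42 RPKM at low volume, and the low-volume 3 ng library was the lowest. Airn had 6.44, 1.22 and 1.24 RPKM at high volume, against 0.212, 1.48 and 1.56 RPKM at low volume. The high-volume 3 ng library was far above and the low-volume 3 ng library below the other 4, in counts of 111, 35 and 39 tags at high volume, against 4, 48 and 59 tags at low volume. The Igf2r minus Airn difference was 0.64 ± 0.82 on the log2 scale, positive in 5 of 6 libraries, with an exact sign-flip p of 0.188 and the same adjusted p, and 0.97 without the high-volume 3 ng library. Igf2r introns 1 and 2, which Airn crosses in the opposite direction, read 0.304 to 0.677 and 0.029 to 0.463 RPKM, beside 0 to 0.0235 RPKM for the other Igf2r introns together. Coverage of Igf2r itself was concentrated at its 3′ end, with 8.62, 11.1 and 10.6 RPKM at high volume, against 8.91, 11.4 and 11.2 RPKM at low volume for exons 47 and 48. Exons 1 to 46 had 1.20, 1.33 and 1.69 RPKM at high volume, against 0.0666, 1.68 and 1.44 RPKM at low volume. The low-volume 3 ng library thus held 8 tags in those 46 exons, where the others held 132 to 347, while its last exons lay close to the rest. The exon groups of Igf2r were chosen after the values were seen.

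Mest, a hydrolase-like protein of mesoderm and the developing nervous system, was the fifth by mean level of the chosen transcript, while Gnas, Igf2 and Rian also lay above it at 219.5, 118 and 115 RPKM with their transcripts of largest mean RPKM. Mest (chr6:30738050-30748455, plus strand) had 94.3, 112 and 100.4 RPKM at high volume, against 106, 119.7 and 102 RPKM at low volume, with overlapping groups. RefSeq gives it several starts, of which the pair below differ in their content of CpG, the dinucleotide that carries imprinting methylation. Windows of 300 bases, 250 before and 50 after the start, are shown 5′ to 3′ on the plus strand with each CG in capitals (RefSeq, GRCm38.p6), the main start at chr6:30737800-30738099 and an upstream one at chr6:30733256-30733555.
Mest main start: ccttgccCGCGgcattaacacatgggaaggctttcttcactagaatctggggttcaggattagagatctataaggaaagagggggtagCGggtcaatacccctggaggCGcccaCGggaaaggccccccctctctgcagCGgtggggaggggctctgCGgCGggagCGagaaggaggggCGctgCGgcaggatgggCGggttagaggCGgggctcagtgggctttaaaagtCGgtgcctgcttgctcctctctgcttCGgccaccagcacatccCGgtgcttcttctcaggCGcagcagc
Mest upstream start: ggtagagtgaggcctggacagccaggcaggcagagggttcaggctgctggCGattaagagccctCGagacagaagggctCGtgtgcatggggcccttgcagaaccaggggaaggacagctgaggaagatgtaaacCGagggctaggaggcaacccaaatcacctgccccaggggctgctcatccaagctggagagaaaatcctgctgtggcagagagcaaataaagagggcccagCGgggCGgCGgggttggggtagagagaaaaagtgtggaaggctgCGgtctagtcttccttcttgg
The main window held 17 CG and the upstream one 8, counts that 31.4% and 48.6% of all 32851 such windows reach or exceed. The first exon at the main start, that of Mest-211, had 169, 310 and 395 tags at high volume, against 192, 266 and 305 tags at low volume. The first exon at the upstream start, that of Mest-207, had 1 tag in 1 low-volume library and 0 in the other 5, and a start further upstream, that of Mest-206, had 1 tag in each of both 30 ng libraries.

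Copg2, a coatomer subunit whose gene converges on Mest from the opposite strand, had 39.4, 44.5 and 36.1 RPKM at high volume, against 42.6, 47.01 and 37.3 RPKM at low volume. Its last exon, of 1434 bases, overlaps the last exon of Mest by 902 bases (chr6:30747554-30748455). In this way 22.8% of the exonic bases of Copg2 and 35.3% of those of Mest are shared, and the Mest levels above include them. The last exon of Copg2 read 75.3, 90.0 and 66.3 RPKM at high volume, against 79.0, 95.1 and 77.2 RPKM at low volume. Exons 1 to 23, which are not shared, read 18.97, 18.6 and 18.9 RPKM at high volume, against 22.0, 19.7 and 14.7 RPKM at low volume. The last exon was above the rest in every library. Exons 1 to 23 averaged 18.8 ± 2.36 RPKM, beside 41.1 ± 4.27 RPKM for the whole transcript (SD, n = 6). How much of the gap comes from the overlap and how much from coverage towards the 3′ end was not tested. Mest exceeded Copg2 by 1.34 ± 0.08 on the log2 scale in 6 of 6 libraries when the shared tags counted for both. Mest intron 2, which holds miR-335 (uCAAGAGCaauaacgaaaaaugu for its 5p arm, seed in capitals), read 0 to 1.62 RPKM.

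In the Dlk1 to Dio3 cluster on chromosome 12, Rian was far above all other genes. Meg3, a long noncoding RNA at chr12:109545398-109571726, had 4.25, 4.40 and 4.39 RPKM at high volume, against 3.62, 3.98 and 3.92 RPKM at low volume, and the groups did not overlap. Its chosen transcript is 14548 bases long, and the shorter Meg3-207 of 1896 bases averaged 16.1 RPKM, so the level depends on the transcript taken. Rian, a noncoding RNA that hosts small nucleolar RNAs, had 41.4, 73.9 and 80.2 RPKM at high volume, against 85.4, 86.4 and 75.9 RPKM at low volume. The high-volume 3 ng library lay below the other 5. Within Rian the gap was largest in the 3′ part, where exons 5 to 11 had 35.1, 79.5 and 88.9 RPKM at high volume, against 90.9, 90.2 and 77.9 RPKM at low volume. Exons 1 to 4 had 52.1, 64.4 and 65.6 RPKM at high volume, against 75.9, 79.8 and 72.5 RPKM at low volume, with a smaller gap. These exon groups were chosen after the values were seen, and the difference between them was not tested. Mirg, the RNA that hosts a large group of microRNAs, had 0.486, 0.764 and 0.712 RPKM at high volume, against 0.371, 0.4 and 0.601 RPKM at low volume. On the log2 scale Rian exceeded Meg3 by 3.84 ± 0.43 in 6 of 6 libraries, and the Mirg minus Meg3 difference was -1.72 ± 0.10, negative in 6 of 6.

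**Figure D2:**
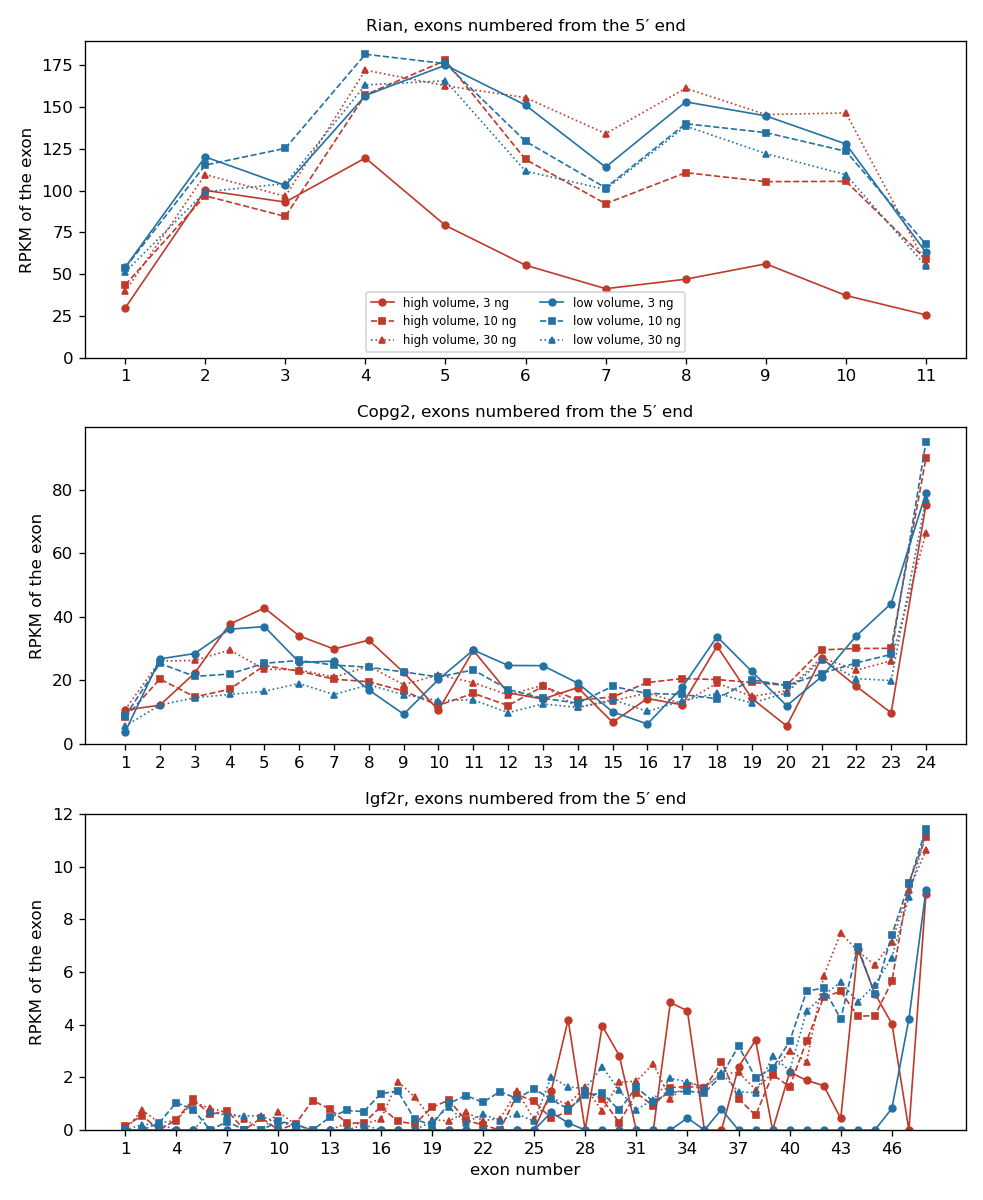
RPKM of each exon of Rian, Copg2 and Igf2r, numbered from the 5′ end, with 1 line per library (red for high volume, blue for low volume). The high-volume 3 ng line of Rian lies below the others from exon 4 on, exon 24 of Copg2 stands above its other exons in all libraries, and Igf2r is highest in its last exon in each library.

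Among the paternally expressed genes of this cluster, Dlk1, an EGF-repeat protein of the Notch ligand type, had 1.94, 2.86 and 3.14 RPKM at high volume, against 2.20, 2.66 and 2.50 RPKM at low volume, with both 3 ng libraries the lowest of their groups. Meg3 exceeded Dlk1 by 0.53 ± 0.16 on the log2 scale in 6 of 6 libraries. Rtl1, a gene derived from a retrotransposon, averaged 0.820 ± 0.126 RPKM with a range of 0.687 to 1.04. Dio3, the deiodinase that inactivates thyroid hormone, had 0.064, 0.457 and 0.856 RPKM at high volume, against 0, 0.441 and 0.682 RPKM at low volume. Both 3 ng libraries were at or near 0, with 2, 24 and 49 tags at high volume, against 0, 26 and 47 tags at low volume.

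Inside Mirg lie 14 hairpins on its own strand, and 6 hairpins face exon 2 of Rtl1 from the opposite strand, where maternally transcribed microRNAs are known to cut the Rtl1 transcript. The pair in Mirg that share a seed and 1 of those opposite Rtl1 are shown, with miR-770 of Meg3 exon 5, all from RefSeq with the seed in capitals.
miR-453: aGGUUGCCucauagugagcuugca
miR-496a-5p: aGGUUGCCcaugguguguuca
miR-127-3p: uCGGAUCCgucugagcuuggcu
miR-770-5p: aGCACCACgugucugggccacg
miR-453 and miR-496a-5p share the seed GGUUGCC, and no other seed was shared among the mature microRNAs found within the listed transcripts. Exon 2 of Rtl1 read 0.688 to 1.05 RPKM and its intron 1 read 1.58 to 2.79 RPKM. In each library the intron was above the exon, and without strand the tags of either cannot be assigned to Rtl1 or to the RNA opposite it.

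Among the listed genes of the Kcnq1ot1 cluster, Cdkn1c was well expressed, while Phlda2, Ascl2 and Slc22a18 were low. Cdkn1c, the cell cycle inhibitor p57, had 46.7, 60.1 and 49.2 RPKM at high volume, against 60.6, 54.7 and 55.0 RPKM at low volume, with overlapping groups and the high-volume 3 ng library the lowest. Its exons 3 and 4 averaged 124 RPKM, against 3.98 RPKM for exons 1 and 2. Phlda2, a regulator of placental growth, had 0, 0.051 and 0.141 RPKM at high volume, against 1.33, 0 and 0.195 RPKM at low volume. These rested on 0, 1 and 3 tags at high volume, against 17, 0 and 5 tags at low volume, and 16 of the 17 tags in the low-volume 3 ng library fell in exon 2. It did not pass the filter on low counts, nor did Ascl2, a factor of the trophoblast lineage, at 0.175 ± 0.145 RPKM (range 0 to 0.342). Cdkn1c exceeded Phlda2 by 5.50 ± 0.41 on the log2 scale in 6 of 6 libraries. Slc22a18, a transporter gene, averaged 1.65 ± 0.651 RPKM with a range of 0.954 to 2.67. Kcnq1ot1, the paternal RNA that silences this cluster in cis, was read through introns of its antisense host Kcnq1, whose own transcript had a mean of 0.258 RPKM. Kcnq1 intron 10, most of which Kcnq1ot1 covers, had 0.487, 0.622 and 0.379 RPKM at high volume, against 0.297, 0.57 and 0.506 RPKM at low volume. All other Kcnq1 introns outside Kcnq1ot1 as a whole had 0.000897 to 0.0168 RPKM, so the covered intron was higher in each library.

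Grb10, an adaptor that restrains insulin and IGF1 receptor signalling, is expressed in mice from the maternal allele in most tissues, through its main promoter, and from the paternal allele in neurons of the central nervous system, through promoters further downstream. Its level was 24.4, 33.2 and 35.5 RPKM at high volume, against 33.1, 38.8 and 34.5 RPKM at low volume, lowest in the high-volume 3 ng library. Windows around the main start (chr11:12037371-12037670) and a downstream start (chr11:12027922-12028221), both on the minus strand and shown 5′ to 3′ with each CG in capitals (RefSeq, GRCm38.p6), are given because their first exons differed.
Grb10 main start: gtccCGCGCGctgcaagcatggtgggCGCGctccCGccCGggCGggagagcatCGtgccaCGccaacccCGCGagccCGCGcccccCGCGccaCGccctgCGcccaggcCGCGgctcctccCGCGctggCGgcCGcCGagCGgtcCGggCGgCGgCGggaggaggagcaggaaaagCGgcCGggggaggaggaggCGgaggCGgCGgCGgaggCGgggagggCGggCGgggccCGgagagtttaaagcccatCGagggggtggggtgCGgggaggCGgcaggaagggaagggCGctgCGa
Grb10 downstream start: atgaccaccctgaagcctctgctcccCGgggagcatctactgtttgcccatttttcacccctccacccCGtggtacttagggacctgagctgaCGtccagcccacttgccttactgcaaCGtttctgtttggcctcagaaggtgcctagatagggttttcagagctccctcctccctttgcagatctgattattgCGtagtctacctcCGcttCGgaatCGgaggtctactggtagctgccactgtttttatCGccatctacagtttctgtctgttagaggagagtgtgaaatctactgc
The main window held 45 CG, a number that 1.93% of all windows reach, and the downstream window 9, which 45.8% reach. The first exon at the main start, that of Grb10-201, had 54, 83 and 155 tags at high volume, against 24, 89 and 125 tags at low volume. The first exon at the downstream start, that of Grb10-203, had 4, 0 and 0 tags at high volume, against 0, 1 and 3 tags at low volume. The other downstream first exons before the shared coding exons, those of Grb10-207 and Grb10-209, had 0 to 3 tags. The main start was above each of these in every library.

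Gnas, which encodes the stimulatory G protein alpha subunit, uses a series of first exons that are imprinted in different ways and splice to common exons. The chosen transcript had 109.6, 90.9 and 98.1 RPKM at high volume, against 98.5, 87.1 and 92.8 RPKM at low volume, with overlapping groups. This transcript includes a first exon of the 1A region and an exon 2 of 2327 bases at 1.07 to 1.91 RPKM, while its common exons 3 to 13 averaged 109.5 to 446 RPKM. The most 5′ first exon, that of the maternal Nesp transcript, had 9, 11 and 11 tags at high volume, against 1, 4 and 2 tags at low volume. All high-volume libraries were above all low-volume libraries there, on at most 11 tags, and the share of all exons without overlap was not counted. The first exon of the paternal extra-large form, of 2359 bases, had 24, 1 and 13 tags at high volume, against 0, 0 and 10 tags at low volume. The 1A first exon of Gnas-202 had 16, 19 and 31 tags at high volume, against 22, 11 and 16 tags at low volume. The first exon of the ordinary form, that of Gnas-207, had 66, 90 and 115 tags at high volume, against 42, 72 and 110 tags at low volume. This was more than the other 3 in each library, in tags not scaled to exon length. In RPKM the 1A exon was above that of Gnas-207 in the low-volume 3 ng library, at 7.471 against 5.785. The Gnas-207 exon also lies within exon 2 of the chosen transcript, so its tags cannot be assigned to the ordinary form alone. Between the Nesp and extra-large exons, the first exon of Gnas-215 had 50, 56 and 62 tags at high volume, against 66, 48 and 59 tags at low volume, with overlapping groups. Its mean of 11.2 RPKM was above the 7.78 RPKM of the longer Gnas-207 exon. None of these exons was tested singly.

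**Figure D3:**
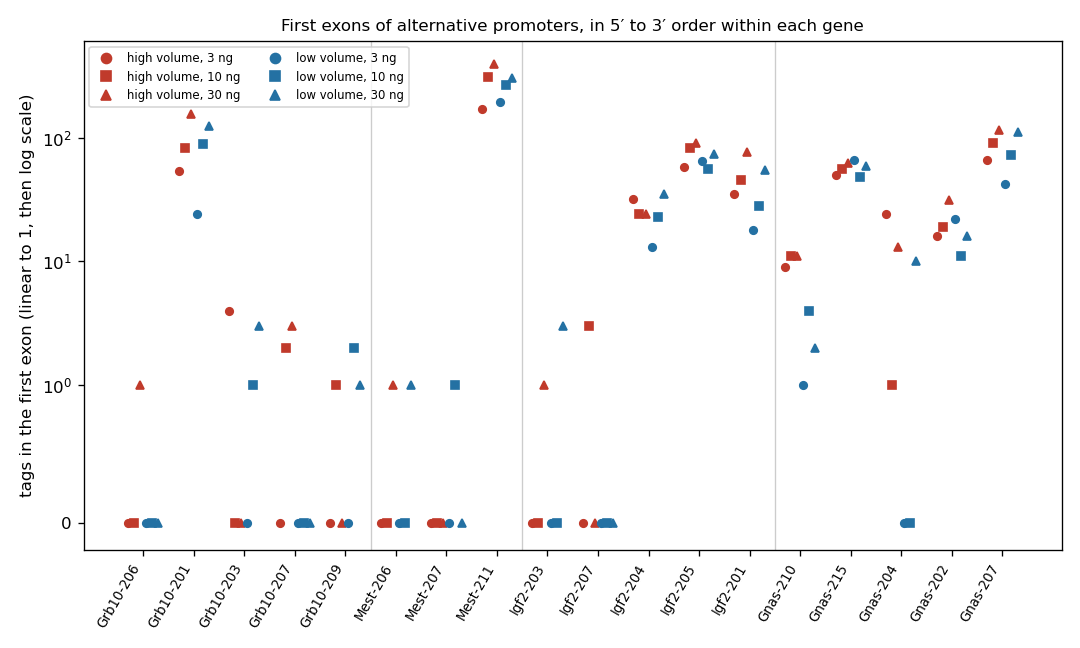
Tags in the first exons of alternative promoters of Grb10, Mest, Igf2 and Gnas (log axis above 1 tag), ordered 5′ to 3′ within each gene, with 1 symbol per library (red for high volume, left, and blue for low volume, right). Grb10-201 and Mest-211 hold 24 or more tags in each library and the neighbouring starts of each gene at most 4.

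Over the promoter windows of all listed genes, 48 windows of 33 genes were found. Of these 24 held 15 or more CG, beside 34.6% of all windows, and the median was 14.5, beside 7. Windows of the same gene can overlap, as in Mest at chr6:30737800-30738099 and chr6:30737803-30738102. The same CG can therefore count more than once, and the windows are not all separate promoters.

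Peg3, a zinc-finger protein known for maternal behaviour and fetal growth in mice, led its cluster with 3.82, 6.21 and 5.04 RPKM at high volume, against 5.49, 6.29 and 5.68 RPKM at low volume, lowest in the high-volume 3 ng library. Usp29, which shares its promoter region, had 0, 0.178 and 0.204 RPKM at high volume, against 0, 0.026 and 0.26 RPKM at low volume, from 0, 12 and 15 tags at high volume, against 0, 2 and 23 tags at low volume. No Usp29 tag was found in either 3 ng library, where a count of 0 allows up to 3 tags, or 0.0742 RPKM at high volume and 0.0679 RPKM at low volume, for counting error only. Peg3 exceeded Usp29 by 2.52 ± 0.22 on the log2 scale in 6 of 6 libraries. Zim1, a maternally expressed zinc-finger gene beside them, averaged 0.148 ± 0.117 RPKM with a range of 0 to 0.302. In the Peg10 to Sgce cluster, Sgce, epsilon-sarcoglycan, had 25.1, 28.4 and 29.2 RPKM at high volume, against 30.7, 30.2 and 32.5 RPKM at low volume, and its highest high-volume value lay below its lowest low-volume value. Peg10, a retrotransposon-derived gene essential for the placenta, starts head to head with it and had 0.785, 0.969 and 1.10 RPKM at high volume, against 0.355, 0.8 and 0.813 RPKM at low volume. The Peg10 minus Sgce difference was -4.08 ± 0.27 on the log2 scale, negative in 6 of 6 libraries. Asb4, a maternally expressed gene further along this cluster, averaged 1.32 ± 0.690 RPKM, with 1 tag in the low-volume 3 ng library and 64 to 201 in the others.

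Plagl1, the growth-restraining transcription factor Zac1, had 3.33, 6.89 and 2.85 RPKM at high volume, against 5.66, 5.56 and 4.36 RPKM at low volume, with wide spread within the high-volume group. Impact, an inhibitor of the Gcn2 kinase that is abundant in neurons, had 9.62, 12.0 and 8.07 RPKM at high volume, against 8.04, 14.5 and 10.7 RPKM at low volume. In the low-volume 3 ng library the first 5 exons of Impact held 6 tags, where the others held 78 to 129, and exons 7 to 11 held 453, within the range of 422 to 1299 in the others. These exon groups, which leave out exon 6, were also chosen after the values were seen. Zdbf2, a paternally expressed gene active in the brain, had 0.726, 0.612 and 0.466 RPKM at high volume, against 0.225, 0.64 and 0.63 RPKM at low volume, lowest in the low-volume 3 ng library.

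Several imprinted genes are known as single-exon retrogenes or noncoding RNAs inside introns of hosts, where their tags appear as an intron of high coverage. Mcts2, a retrogene in intron 4 of H13, had 53.7, 55.8 and 59.8 RPKM at high volume, against 68.3, 56.6 and 61.6 RPKM at low volume. That intron read 17.8 to 22.6 RPKM and the other H13 introns together 0.169 to 0.660 RPKM. Nap1l5, a retrogene of the nucleosome assembly family in intron 22 of Herc3, had 12.0, 8.78 and 5.66 RPKM at high volume, against 9.05, 8.29 and 7.17 RPKM at low volume. Intron 22 read 0.562 to 1.07 RPKM, against 0.0377 to 0.0717 RPKM for the other Herc3 introns. Zrsr1, a retrogene of a splicing factor in intron 1 of Commd1, had 0.331, 0.999 and 0.869 RPKM at high volume, against 1.37, 1.56 and 1.04 RPKM at low volume, with all high-volume values below the low-volume ones. The host intron was above the other Commd1 introns in 5 of 6 libraries, with the exception of the high-volume 3 ng library at 0.089 RPKM against 0.109 RPKM.

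Peg13, a paternal noncoding RNA of the brain, lies in intron 16 of Trappc9, a subunit of the TRAPP vesicle tethering complex that is maternally biased in the mouse brain. Trappc9 itself had 11.9, 8.23 and 10.9 RPKM at high volume, against 18.0, 14.4 and 14.0 RPKM at low volume, and every high-volume value lay below every low-volume value. Intron 16 (chr15:72757359-72903556), which contains the whole of Peg13, had 0.481, 0.561 and 0.641 RPKM at high volume, against 0.665, 0.71 and 0.665 RPKM at low volume. The other Trappc9 introns together had 0.00533 to 0.0220 RPKM, so intron 16 was higher in every library. How its tags are spread within the intron is not resolved in the files, so no level of Peg13 itself is given.

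**Figure D4:**
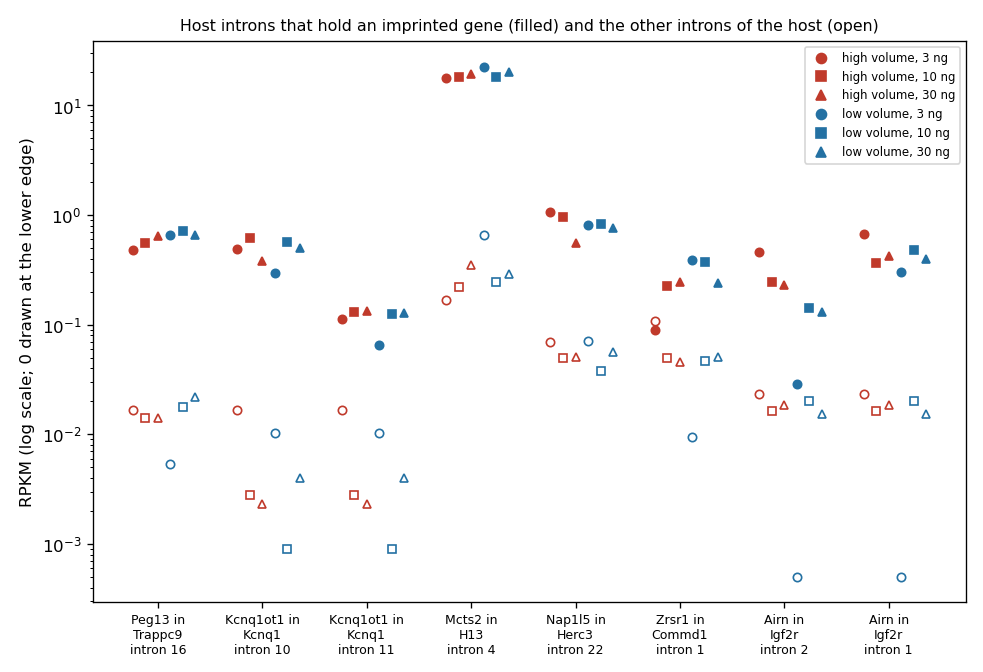
RPKM (log axis) of host introns that hold an imprinted gene (filled symbols) and of the other introns of the same host as a whole (open symbols), with red for high volume on the left and blue for low volume on the right. The filled symbols lie above the open ones in each library, except for the high-volume 3 ng library in Commd1 intron 1.

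The 12 pairs of neighbouring imprinted genes were compared on the log2(RPKM + 1) scale by a two-sided exact sign-flip test over the 6 libraries, whose smallest p is 0.0312. Of these, 11 reached it, with an adjusted p of 0.0341 over the 12 pairs by the Benjamini-Hochberg method, and each of the 11 kept its sign in 6 of 6 libraries. Any 2 genes that keep 1 order in all 6 libraries reach this p, whether imprinted or not. Pairs of other genes were not compared, so the test shows a steady order and nothing particular to imprinted neighbours. The differences ran from 6.70 ± 0.34 for Ndn minus Magel2 to -4.08 ± 0.27 for Peg10 minus Sgce. The Igf2r and Airn pair did not pass, and the scale understates ratios of genes near or under 1 RPKM. With the transcript of largest mean RPKM taken for each gene, a choice made after the data were seen, Meg3 minus Dlk1 was 0.99. On that choice H19 minus Igf2 was 1.59, Rian minus Meg3 2.76 and Mirg minus Meg3 -2.56, and the other pairs moved less. By CPM, which are not scaled to length, H19 minus Igf2 was 1.24 and Meg3 minus Dlk1 2.25. The sizes thus depend on the transcript and the scale, which the SDs do not cover.

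No imprinted gene passed the threshold between the high-volume and the low-volume group. Of the 36 that passed the filter on low counts, 0 had an adjusted p under 0.05 by the quasi-likelihood test of edgeR over 16120 genes, where 1 gene or 0.0062% did (Gm42418, which is not an imprinted gene and is named after its value was seen). At an unadjusted p under 0.05, 5 of 36 passed, beside 6.67% of all genes, and DESeq2 gave 0 adjusted and 5 unadjusted, beside 1.13% and 8.95%. The log2 difference was above 0 for 24 of 36, beside 8363 of all 16120 genes, with a median of 0.17, beside 0.02 over all genes. Leaving out 1 library gave medians of 0.02 to 0.21 for the imprinted genes, with 0.02 without the high-volume 10 ng library, 0.03 without the low-volume 3 ng library and 0.10 without the low-volume 30 ng library. Over all genes the medians then ran from -0.03 to 0.05. Scaling by total counts in place of TMM moved the medians to 0.05 and -0.10 and left 20 of 36 above 0.

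The 5 genes were Nnat, Meg3, H19, Gnas and Trappc9, here in CPM, tags scaled to the library total and by TMM factors. Nnat had 961, 897 and 946 CPM at high volume, against 927, 681 and 636 CPM at low volume, a log2 difference of 0.34 ± 0.12 (SE) with an adjusted p of 0.691. Meg3 had 71.6, 72.4 and 72.5 CPM at high volume, against 53.6, 59.4 and 59.6 CPM at low volume, a difference of 0.33 ± 0.12. H19 had 566, 563 and 572 CPM at high volume, against 521, 453 and 495 CPM at low volume, a difference of 0.21 ± 0.09. In Meg3 and H19 the groups did not overlap on this scale, while H19 overlapped in the deposited RPKM, and Nnat overlapped through its low-volume 3 ng library. Gnas had 496, 401 and 434 CPM at high volume, against 392, 349 and 379 CPM at low volume, a difference of 0.25 ± 0.10. Trappc9 was the only one of the 5 with lower values at high volume, 55.6, 37.6 and 50.1 CPM at high volume, against 74.0, 59.8 and 59.1 CPM at low volume, a difference of -0.42 ± 0.18. Meg3, H19, Gnas and Trappc9 each had an adjusted p of 0.745 by edgeR. Under total-count scaling the differences were 0.22 for Nnat, 0.21 for Meg3, 0.09 for H19, 0.13 for Gnas and -0.55 for Trappc9. Nnat was 0.21 without the high-volume 30 ng library, Gnas 0.16 without the high-volume 3 ng library and Trappc9 -0.28 without the high-volume 10 ng library. On the CPM scale, with Peg10 among them, 4 of 36 genes were higher and 1 was lower at high volume without overlap, beside 8.1% and 7.26% of all genes. In the deposited RPKM, which have no TMM factors, 1 (Meg3) was higher and 6 (Blcap, Ndn, Sgce, Snrpn, Trappc9 and Zrsr1) were lower without overlap, beside 4.03% and 15% of all genes. Meg3 and Trappc9 were without overlap on both scales, but the share of all genes that are so on both was not counted. With the 10 and 30 ng libraries alone, Nnat was higher at high volume by 0.49 with an adjusted p of 0.0114 by edgeR, the 1 imprinted gene of 37 tested that passed, where 1.65% of all genes did. That fit has fewer residual degrees of freedom than the 3 of the main fit. It also leaves out the low-volume 3 ng library, through which the Nnat groups overlapped. The summed level of 3 of 10 marker lists did not overlap between the groups. Spinal cord markers were at 8.12 to 11.9 RPKM at high volume, against 2.78 to 4.41 RPKM at low volume. Most of that sum was Hes5, at 11.7, 7.199 and 7.83 RPKM at high volume, against 3.85, 2.70 and 1.85 RPKM at low volume, while Pax6 had 0, 0.46 and 0.389 RPKM at high volume, against 0, 1.02 and 0.618 RPKM at low volume, and Olig2 and Mnx1 were listed at 0 in all low-volume libraries. Erythroid markers were at 3659 to 3891 RPKM at high volume, against 2992 to 3583 RPKM at low volume. Glial markers lay the other way, at 928 to 1001 RPKM at high volume, against 1040.0 to 1075 RPKM at low volume. Their part in these values was not tested.

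**Figure D5:**
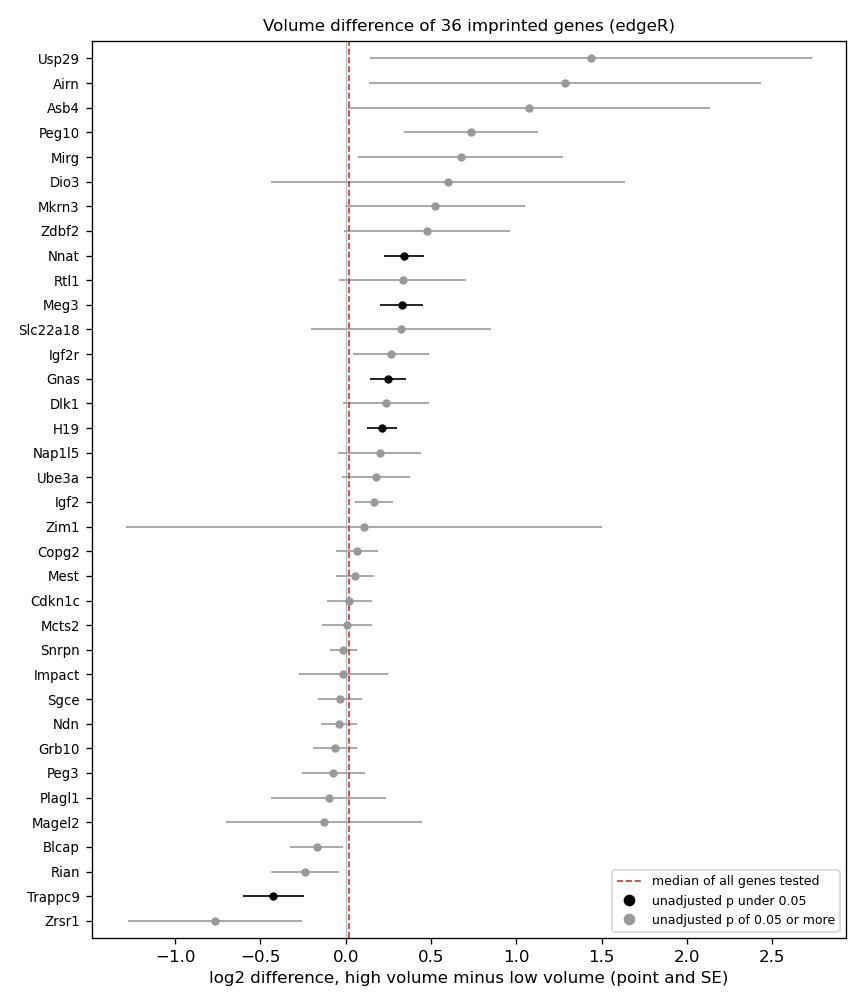
Log2 difference, high volume minus low volume, of 36 imprinted genes by edgeR, with SE bars, black where the unadjusted p was under 0.05 and grey otherwise, and the median of all genes as a dashed line. Usp29, Airn and Asb4 have the largest estimates and bars near or above 1, and the 5 black points lie between -0.42 and 0.34.

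The amount of RNA likewise gave no call among imprinted genes. Per doubling of input, 0 of 36 passed by edgeR and 0 by DESeq2, where edgeR called 0% and DESeq2 0.273% of all genes. At an unadjusted p under 0.05 edgeR gave 3 of 36, beside 7.77% of all genes, and DESeq2 gave 4, beside 12.5%. The 3 were Usp29 with a slope of 1.60 ± 0.58 (SE), Dio3 with 1.26 ± 0.47 and Nap1l5 with -0.21 ± 0.09, on the log2 scale. Usp29 and Dio3 had 0 to 2 tags in the 3 ng libraries and at most 49 tags in any library. Nap1l5 had 26.4, 18.8 and 12.2 CPM at high volume, against 17.4, 16.1 and 14.2 CPM at low volume, with the highest value of each group at 3 ng and the lowest at 30 ng. The adjusted p was 0.625 for each of the 3 by edgeR. In all, 5 of 38 imprinted genes had 0 tags in at least 1 library of 3 ng and 1 of 38 in a library of 10 or 30 ng. The slopes at high and low volume were also compared with each other, and 0 of 36 imprinted genes passed by edgeR, as did 0% of all genes. Zdbf2, Airn and Rian had an unadjusted p under 0.05, 3 of 36, beside 8.36% of all genes.

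Other genes of imprinted regions and the factors that keep imprints were read beside the list. Of 48 further imprinted genes and host genes, 38 had a transcript and 23 a mean of at least 1 RPKM. The highest were Cd81 at 347 ± 41.1, Nap1l4 at 91.2 ± 17.8 and H13 at 43.4 ± 14.5 RPKM (SD, n = 6). All 24 imprint regulators had a transcript and 20 a mean of at least 1 RPKM. Trim28, the corepressor that holds methylation at imprinted regions, was at 31.7 ± 3.83, its zinc-finger partner Zfp57 at 16.6 ± 2.81 and the heterochromatin protein gene Cbx5 at 14.3 ± 0.948 RPKM. By edgeR 0 of the 33 further genes and 0 of the 22 regulators tested passed for volume or for input, beside the shares of all genes given above.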

How the data were processed

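The authors deposited whole-number tag counts and RPKM per transcript, exon and intron, made from reads processed with CASAVA 1.8, TopHat2 2.0.8 and Bowtie2 2.1.0 on GRCm38.p1, per the submitters' processing notes. For the counting program and the annotation behind it, no label or header names a version (not given in the sources used here). Deposited counts for the 22 exon intervals present on both strands were equal in each library with tags, so strand was not used. The deposited RPKM values are the authors' own, per kilobase and scaled to the library total.

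Each gene was represented by the transcript with most tags. Volume (high minus low) and log2 input were fitted together to the counts with edgeR 4.0.16 in R 4.3.3 (TMM scaling, filterByExpr, quasi-likelihood test, 3 residual degrees of freedom), over 16120 genes with Benjamini-Hochberg adjustment and a threshold of 0.05. DESeq2 1.42.0 was an alternative. Gene pairs were compared on log2(RPKM + 1) by exact sign-flip tests, adjusted over 12 pairs. Both tests were checked on simulated data. The Python packages were pandas 2.3.3 and numpy 2.4.6. Transcript names were matched to GENCODE M21, and sequences come from RefSeq tables of GRCm38.p6, whose chromosome coordinates equal those of the earlier patch.

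Members, gene lists and tests were chosen with earlier results of these data known. The exon groups within Rian, Cdkn1c, Copg2, Igf2r, Impact and Snrpn were chosen after their values were seen. The 38 members with a transcript were given their levels, and library values were printed for the highest such member of each cluster, both genes of each pair and members with an unadjusted p under 0.05 for volume or input. The 9 µl and 1 µl libraries differ in kit as well as volume, and 12 PCR cycles were used with no molecular identifiers named in the labels, so counting limits cover counting error only.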

Additional observations from a re-analysis of the deposited data

Results flagged for a closer look

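Over 38 imprinted genes, 5 had a library far from the other 5, by Dixon's test, which chance alone passes in about 1 in 20 groups. Of the 36 in the edgeR fit 4 did so, beside 13.3% of all 16120 genes. All 5 values came from a 3 ng library. Airn reached 6.44 RPKM in the high-volume 3 ng library, from 111 tags of which 92 lay in exon 2, and the next library had 1.56 RPKM. Rian lay below the rest in the same library, at 41.4 RPKM with the next at 73.9 RPKM. Phlda2 was at 1.33 RPKM in the low-volume 3 ng library, from 17 tags, and the next library had 0.195 RPKM. Ndn was at 193 RPKM in the low-volume 3 ng library, above the next at 151 RPKM. Asb4 was at 0.018 RPKM in the low-volume 3 ng library, from 1 tag, and the next lowest library had 1.26 RPKM. The low-volume 3 ng library also had 8 tags in exons 1 to 46 of Igf2r and 6 tags in exons 1 to 5 of Impact. Both exon groups were chosen after the values were seen. Over 8888 genes, tags were summed over whole exons whose midpoint lies over 1500 bases from the 3′ end. Their share had a median of 38.7% in that library, within the range of 36.7% to 41.3% over the 6 libraries. For Igf2r it was 4.68% in that library. A long last exon can count in full, so this share does not show where tags lie within an exon.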

How the results depend on the processing

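The 1 gene called for volume over all genes became 11 with no filter on low counts, 182 with DESeq2 and 274 with the 10 and 30 ng libraries alone, and the cause was not tested. Leaving out 1 library gave 0 to 2, with 0 without the low-volume 3 ng library and 2 without the high-volume 30 ng library. Equal inputs were also treated as pairs, and with this replicate block 0 genes were called. Correlations of their deviations were 0.0278, 0.13 and 0.00752 at 3, 10 and 30 ng over 10866 genes, so beyond their input amount no shared deviation was seen at every input. The input slope gave 0 calls, 2 with no filter and 44 with DESeq2, and 0 without each library in turn. The 11 gene pairs that passed stayed 11 with a pseudocount of 0.1 and with another transcript (an alternative added after seeing the data), and were 12 with CPM, and 0 passed without any 1 library, since 5 libraries cannot give a p under 0.0625. The number of imprinted genes at 1 RPKM or more was 24 to 29. Among alternative values of the volume and input differences of named genes, 89 kept direction and side of the threshold and 1, Nnat, newly passed. Among alternative levels 257 stayed within the spread and 9 moved, all with another transcript, to means in RPKM of 659 for Nnat, 357 for H19, 219.5 for Gnas, 118 for Igf2, 115 for Rian, 34.5 for Sgce, 16.1 for Meg3, 7.58 for Dlk1 and 1.88 for Mirg, which puts Nnat above Snrpn and Gnas, Igf2 and Rian above Mest. None of these volume and input differences of named genes changed sign, nor did any pair difference. Over all 36 imprinted genes tested, some did, since 24 were above 0 for volume by the main fit and 20 under total-count scaling. Usp29, Dio3, Phlda2, Ascl2 and Zim1 each had 0 tags in at least 1 library.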
